A study of Bos indicus x Bos taurus with 17 samples.

Results

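The SMAD family comprises the proteins that carry signals of the transforming growth factor beta (TGF-beta) superfamily from the cell membrane to the nucleus. Its members were taken by gene symbol from the gene count tables of fetal liver and fetal skeletal muscle, and all 8 bovine genes were found (SMAD1, SMAD2, SMAD3, SMAD4, SMAD5, SMAD6, SMAD7 and SMAD9) among 21048 listed genes. All 8 were measured in each of 12 libraries, with 133 to 4940 reads per gene and library.

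Ligands of this superfamily bind pairs of receptor kinases, which phosphorylate the receptor-regulated SMADs. SMAD1, SMAD5 and SMAD9 act downstream of bone morphogenetic protein (BMP) receptors, whereas SMAD2 and SMAD3 act downstream of TGF-beta, activin and myostatin receptors, and both sets enter the nucleus together with SMAD4. SMAD6 and SMAD7 are inhibitory members that are themselves induced by the pathway and restrain it. In liver the BMP branch controls the iron hormone hepcidin, and in skeletal muscle the myostatin branch limits growth while the BMP branch favors it.

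The fetuses were F1 crosses of Bos indicus (Nelore breed) and Bos taurus (Holstein breed) collected at about day 105 of gestation. Control-AI fetuses 2 and 4 were conceived by artificial insemination, and ART-Normal fetuses 1, 2, 3 and 4 were produced in vitro by assisted reproduction, and all are labelled healthy. In the study, ART-Normal means a body weight similar to the controls, as opposed to large offspring syndrome, an overgrowth condition. ART-Normal 4 is in the sample labels but is not among the fetuses whose weights the study lists, so its weight class rests on the label, which reads ART. Each fetus gave 1 liver and 1 muscle library of strand-specific, poly(A)-selected RNA. Fetal sex was not given in the sources used here, and all values come from whole tissue, in which fewer cells of a type and less RNA per cell cannot be told apart.

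Total counts ranged from 18454088 to 43339598 in the 6 liver libraries and from 12433300 to 23578362 in the 6 muscle libraries. Both libraries of Control-AI 2 stood apart from the rest. On the first principal component within a tissue, Control-AI 2 lay at -64.19 in liver and -64.72 in muscle, and the other 5 fetuses lay between 4.54 and 24.97 in liver and between 10 and 18.4 in muscle. AHSG, a plasma protein gene of hepatocytes, took 11.17% of its liver counts, whereas no single gene took more than 1.32% of another liver library. The tissue labels fit their markers: 10 hepatocyte genes summed to at least 37093.4 CPM (counts scaled to a common library total) in each liver and at most 400.6 CPM in each muscle, and 10 skeletal muscle genes to at least 14985.8 CPM in muscle and at most 34.7 CPM in liver. The ART-Normal libraries reached at most 66.81 CPM of the hepatocyte genes in muscle and 10.63 CPM of the muscle genes in liver. In muscle, Control-AI 2 had the highest AHSG, at 148.6 CPM against at most 19.23 CPM in the others, and the cause was not tested. Because Control-AI 2 is 1 of 2 controls, the fold changes of the conception groups are given with and without it.

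The clearest difference in the SMAD family lay between the tissues. SMAD6, SMAD7 and SMAD9 were higher in liver, and SMAD1, SMAD2, SMAD3, SMAD4 and SMAD5 were higher in muscle, in 6 of 6 fetuses for every gene. All 8 genes passed an adjusted p of 0.05 in edgeR's quasi-likelihood test with Benjamini-Hochberg adjustment, and the liver and muscle ranges did not overlap for any of the 8. These counts have to be read against a broad background: 81.3% of the 12923 genes tested were called between the tissues (40.8% higher and 40.5% lower in liver), and 64.6% had ranges that did not overlap (32% higher and 32.6% lower in liver). Passing the test is thus common, and the sizes of the differences set the members apart from each other. An absolute difference as large as that of SMAD6 was found for 19.1% of all genes tested and as large as that of SMAD1 for 22.0%, whereas the other 6 members had differences that 32.7% to 59.5% of genes matched. All 8 genes were above the 5 CPM minimum in every library of both tissues, so none entered the test through the higher tissue alone. The shares above also cover 3370 genes that were not above the minimum in every library. Among the 9553 genes that were, 76.8% were called between the tissues, and the shares by size of difference are not given for them. Values below are CPM after TMM normalization, a scaling of each library by its trimmed mean of log ratios, and errors of fold changes are standard errors (SE) on the log2 scale.

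**Figure D1:**
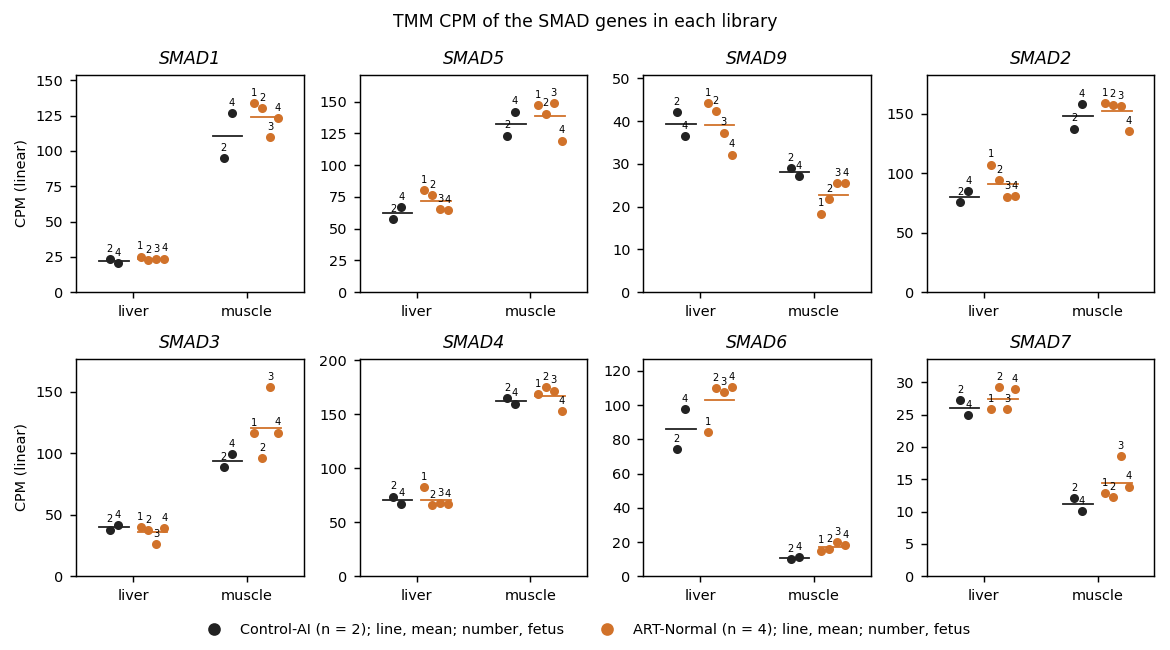
Expression of the 8 SMAD genes in each library, in CPM after TMM normalization on linear axes starting at 0. Each point is 1 library, the number beside it is the fetus, black is Control-AI (n = 2), orange is ART-Normal (n = 4) and lines are group means; SMAD6 lies between 74.4 and 110.6 CPM in liver and between 10.03 and 20.1 CPM in muscle, while SMAD1 lies between 20.4 and 25.2 CPM in liver and between 95.1 and 133.9 CPM in muscle.

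Among the BMP-branch members, SMAD1 (Bos taurus assembly ARS-UCD1.2, chromosome 17, 12740787 to 12823219, minus strand) had the widest tissue difference. In liver, SMAD1 stood at 23.4 CPM in Control-AI 2, 20.4 CPM in Control-AI 4, and 25.2, 22.5, 23.5 and 23.7 CPM in ART-Normal 1 to 4. In muscle, SMAD1 stood at 95.1 CPM in Control-AI 2, 126.5 CPM in Control-AI 4, and 133.9, 130.5, 109.8 and 122.9 CPM in ART-Normal 1 to 4. The liver values lay close together, and the lowest muscle value, that of Control-AI 2, was still far above the highest liver value. SMAD1 was 5.19-fold higher in muscle (log2 liver over muscle -2.37 ± 0.09 SE, n = 6 per tissue, adjusted p = 1.15e-11), and the log2 difference within a fetus ran from -2.63 to -2.02.

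SMAD5 (chromosome 7, 47561017 to 47623314, plus strand), which receives the same receptor signals as SMAD1, had a smaller difference in the same direction. Its liver values were 57.5 CPM in Control-AI 2, 66.7 CPM in Control-AI 4, and 80.2, 76.3, 65.5 and 64.5 CPM in ART-Normal 1 to 4. Its muscle values were 123.2 CPM in Control-AI 2, 142.0 CPM in Control-AI 4, and 147.0, 140.5, 148.9 and 119.2 CPM in ART-Normal 1 to 4. ART-Normal 1 was highest in liver and ART-Normal 4 was lowest in muscle, and the tissues stayed apart. The difference was 2.0-fold in favor of muscle (log2 -1.001 ± 0.09 SE, adjusted p = 1.142e-07).

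SMAD9 (chromosome 12, 24731865 to 24798685, plus strand), the third BMP-branch member and also a transcript that BMP signals induce, went the other way. SMAD9 in liver was 42.0 CPM in Control-AI 2, 36.5 CPM in Control-AI 4, and 44.2, 42.3, 37.3 and 32.1 CPM in ART-Normal 1 to 4. SMAD9 in muscle was 28.9 CPM in Control-AI 2, 27.1 CPM in Control-AI 4, and 18.4, 21.8, 25.6 and 25.5 CPM in ART-Normal 1 to 4. The lowest liver value and the highest muscle value were neighbors, and SMAD9 had the smallest tissue difference of the family. It was 1.6-fold higher in liver (log2 0.68 ± 0.12 SE, adjusted p = 9.141e-05), with log2 differences within a fetus from 0.33 to 1.27. Within the BMP branch the balance therefore turned over between the tissues: there were 1.69 ± 0.192 (SD, n = 6) SMAD9 counts per SMAD1 count in liver and 0.211 ± 0.0576 (SD, n = 6) in muscle, with ranges of 1.36 to 1.88 and 0.137 to 0.304.

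In the TGF-beta and activin branch, SMAD2 (chromosome 24, 47492682 to 47583346, minus strand) was abundant in both tissues. SMAD2 liver values were 75.6 CPM in Control-AI 2, 85.2 CPM in Control-AI 4, and 107.2, 94.3, 80.3 and 80.9 CPM in ART-Normal 1 to 4. SMAD2 muscle values were 137.6 CPM in Control-AI 2, 158.1 CPM in Control-AI 4, and 159.1, 157.7, 156.2 and 135.2 CPM in ART-Normal 1 to 4. The 2 lowest muscle libraries were those of ART-Normal 4 and Control-AI 2. SMAD2 was 1.73-fold higher in muscle (log2 -0.79 ± 0.09 SE, adjusted p = 1.627e-06).

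SMAD3 (chromosome 10, 13895783 to 14021417, plus strand), which unlike the main form of SMAD2 binds DNA directly, differed more than SMAD2. SMAD3 in liver was 37.8 CPM in Control-AI 2, 41.8 CPM in Control-AI 4, and 39.6, 37.5, 26.1 and 39.0 CPM in ART-Normal 1 to 4. SMAD3 in muscle was 88.6 CPM in Control-AI 2, 99.4 CPM in Control-AI 4, and 116.1, 95.9, 153.8 and 116.8 CPM in ART-Normal 1 to 4. ART-Normal 3 was at once the lowest liver library and the highest muscle library. SMAD3 was 3.01-fold higher in muscle (log2 -1.59 ± 0.15 SE, adjusted p = 1.44e-07), and the fold without ART-Normal 3 stayed on the same side (log2 -1.42). There were 0.428 ± 0.0735 SMAD3 counts per SMAD2 count in liver and 0.743 ± 0.151 in muscle (SD, n = 6 each), without overlap of the ranges. SMAD3 is the only member that overlaps another listed gene: LOC112448540, on the opposite strand, shares 304 bp with it.

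SMAD4 (chromosome 24, 50525334 to 50582544, plus strand) is the partner that both branches share. In liver, SMAD4 was 73.7 CPM in Control-AI 2, 67.3 CPM in Control-AI 4, and 82.4, 65.9, 68.1 and 66.6 CPM in ART-Normal 1 to 4. In muscle, SMAD4 was 165.0 CPM in Control-AI 2, 159.8 CPM in Control-AI 4, and 168.9, 175.3, 171.9 and 153.0 CPM in ART-Normal 1 to 4. Its muscle values had the smallest spread of any member in either tissue, with a coefficient of variation of 4.97%. SMAD4 was 2.34-fold higher in muscle (log2 -1.23 ± 0.08 SE, adjusted p = 1.88e-09).

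The inhibitory members were the other way round. SMAD6 (chromosome 10, 13544183 to 13622063, plus strand), which acts mainly against the BMP branch, was 74.4 CPM in the liver of Control-AI 2, 97.7 CPM in Control-AI 4, and 84.3, 109.9, 107.4 and 110.6 CPM in ART-Normal 1 to 4. SMAD6 in muscle was 10.03 CPM in Control-AI 2, 11.2 CPM in Control-AI 4, and 14.9, 16.0, 20.1 and 18.1 CPM in ART-Normal 1 to 4. Every liver library was several times above every muscle library. SMAD6 was 6.57-fold higher in liver (log2 2.72 ± 0.13 SE, adjusted p = 8.272e-11), the largest tissue difference of the 8 members, and log2 differences within a fetus ran from 2.42 to 3.11.

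SMAD7 (chromosome 24, 48598698 to 48627436, minus strand), which restrains both branches, was lower and less divided. SMAD7 liver values were 27.2 CPM in Control-AI 2, 24.9 CPM in Control-AI 4, and 25.9, 29.3, 25.8 and 28.9 CPM in ART-Normal 1 to 4. SMAD7 muscle values were 12.1 CPM in Control-AI 2, 10.1 CPM in Control-AI 4, and 12.9, 12.3, 18.5 and 13.9 CPM in ART-Normal 1 to 4. ART-Normal 3 was the highest muscle library for SMAD7, as it was for SMAD3, SMAD5 and SMAD6. SMAD7 was 2.04-fold higher in liver (log2 1.03 ± 0.12 SE, adjusted p = 1.952e-06).

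SMAD6 and SMAD3 lie on the same strand of chromosome 10 with 273719 bp between them, yet differed between the tissues in opposite directions. SMAD2, SMAD7 and SMAD4 lie in this order on chromosome 24, where SMAD7, in the middle, was higher in liver and its neighbors were higher in muscle. The gaps on chromosome 24 are 1015351 bp and 1897897 bp.

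Genes of vessel cells are relevant to SMAD6, a gene known for its expression in endothelium. The summed level of 8 endothelial genes (CDH5, CLDN5, ESAM, KDR, PECAM1, TEK, TIE1 and VWF) was 512.7 to 573.8 CPM in liver and 768.4 to 875.3 CPM in muscle, and so was lower in the tissue where SMAD6 was higher. Among these 8 genes, 6 were lower in liver, 1 (VWF) was higher and 1 (TEK) was not called. SMAD6 CPM amounted to 13.02% to 19.94% of the endothelial sum in liver and to 1.19% to 2.49% in muscle. Other cell types also differed by tissue. A list of 10 erythroid genes summed to at least 5992.7 CPM in liver and at most 648.0 CPM in muscle, 10 macrophage and neutrophil genes to at least 492.0 and at most 111.8 CPM, and 7 connective tissue genes to at most 1485.1 CPM in liver and at least 22567.1 CPM in muscle. The part of these cell types in the SMAD differences was not tested.

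Counts within one library do not depend on scaling between libraries, and they describe the make-up of the family in each tissue. SMAD6 and SMAD7 together made up 27.7 ± 3.45% (SD, n = 6) of all SMAD counts in liver and 3.83 ± 0.719% in muscle. By fetus, the share of inhibitors in liver was 24.7% in Control-AI 2, 27.8% in Control-AI 4, and 22.5%, 29.1%, 30.7% and 31.2% in ART-Normal 1 to 4. In muscle, the share was 3.35% in Control-AI 2, 2.91% in Control-AI 4, and 3.61%, 3.77%, 4.80% and 4.54% in ART-Normal 1 to 4. The lowest liver share was thus several times the highest muscle share. SMAD2 took 19.3 ± 1.41% in liver and 20.4 ± 0.936% in muscle with overlapping ranges, so its higher CPM in muscle was not matched by a higher share. The BMP-branch members took 29.0 ± 1.31% of SMAD counts in liver and 38.1 ± 1.69% in muscle. SMAD2 and SMAD3 took 27.6 ± 1.87% in liver and 35.5 ± 1.66% in muscle, and SMAD4 took 15.7 ± 1.45% in liver and 22.5 ± 1.40% in muscle. These are shares of counts and not of molecules, since longer genes collect more reads.

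Relative to SMAD4, the partner that receptor-regulated SMADs need, the members moved unevenly. SMAD6 gave 1.40 ± 0.306 counts per SMAD4 count in liver (range 1.01 to 1.67) and 0.091 ± 0.0236 in muscle (range 0.0608 to 0.119), a 15.4-fold difference. SMAD7 gave 0.385 ± 0.0479 in liver and 0.0803 ± 0.0163 in muscle, and SMAD9 gave 0.554 ± 0.0523 and 0.149 ± 0.0271. SMAD2, which was higher in muscle by CPM, was higher in liver per SMAD4 count, at 1.24 ± 0.135 (range 1.03 to 1.43) against 0.910 ± 0.0528 (range 0.834 to 0.989). SMAD1 was lower in liver, with 0.328 ± 0.0221 in liver and 0.725 ± 0.095 in muscle. SMAD5 and SMAD3 per SMAD4 count overlapped between the tissues, at 0.972 ± 0.12 and 0.825 ± 0.0577 for SMAD5 and at 0.526 ± 0.0862 and 0.675 ± 0.138 for SMAD3. Leaving out Control-AI 2 moved none of these values by as much as 1 SD.

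**Figure D2:**
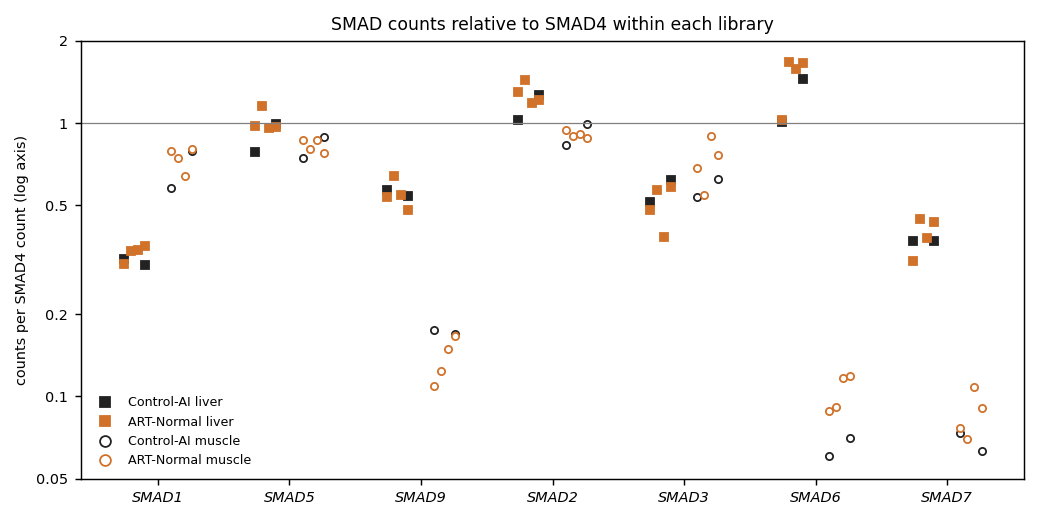
Counts of each SMAD gene per SMAD4 count in the same library, on a log axis. Filled squares are liver and open circles muscle, black is Control-AI and orange is ART-Normal, and the grey line marks equal counts; liver and muscle are far apart for SMAD6 (1.01 to 1.67 against 0.0608 to 0.119), SMAD7, SMAD9 and SMAD1, close but without overlap for SMAD2 (1.03 to 1.43 against 0.834 to 0.989), and they overlap for SMAD5 and SMAD3.

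To set genes side by side, CPM was divided by the listed gene length, which is the whole gene span with introns and not the transcript length, so this order is approximate. Per kb of span, the liver levels were highest for SMAD6 (1.25 ± 0.193 CPM per kb, SD, n = 6) and SMAD4 (1.24 ± 0.112), followed by SMAD5 (1.10 ± 0.134), SMAD2 (0.963 ± 0.128) and SMAD7 (0.939 ± 0.0623). Those neighbors overlapped, and SMAD6 was above SMAD4 in only 4 of 6 livers. A step separated SMAD7 from SMAD9 (0.585 ± 0.0682) and SMAD9 from SMAD3 (0.294 ± 0.0442), and SMAD3 overlapped SMAD1 (0.280 ± 0.0193), the lowest. In muscle the order per kb of span was SMAD4 (2.90 ± 0.144), SMAD5 (2.20 ± 0.201), SMAD2 (1.66 ± 0.123), SMAD1 (1.45 ± 0.178), SMAD3 (0.890 ± 0.187), SMAD7 (0.463 ± 0.099), SMAD9 (0.367 ± 0.0573) and SMAD6 (0.194 ± 0.05). SMAD2 and SMAD1 overlapped there, as did SMAD1 and SMAD3 and also SMAD7 and SMAD9, and the remaining neighbors did not. SMAD6 was thus first in liver and last in muscle on this scale.

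The second comparison asked whether conception by assisted reproduction went with a different SMAD level within a tissue. In neither tissue did a SMAD gene pass an adjusted p of 0.05 between ART-Normal and Control-AI. In liver, 0 of 8 members and 0% of 11304 genes tested were called (edgeR's quasi-likelihood test), 8.39% of the genes had an unadjusted p under 0.05, and none of the members did. In muscle, 0 of 8 members and 0.00855% of 11695 genes (1 gene) were called, 9.19% of the genes had an unadjusted p under 0.05, and SMAD6 was the one member that did. No member was called with the likelihood ratio test or with DESeq2 either.

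**Figure D3:**
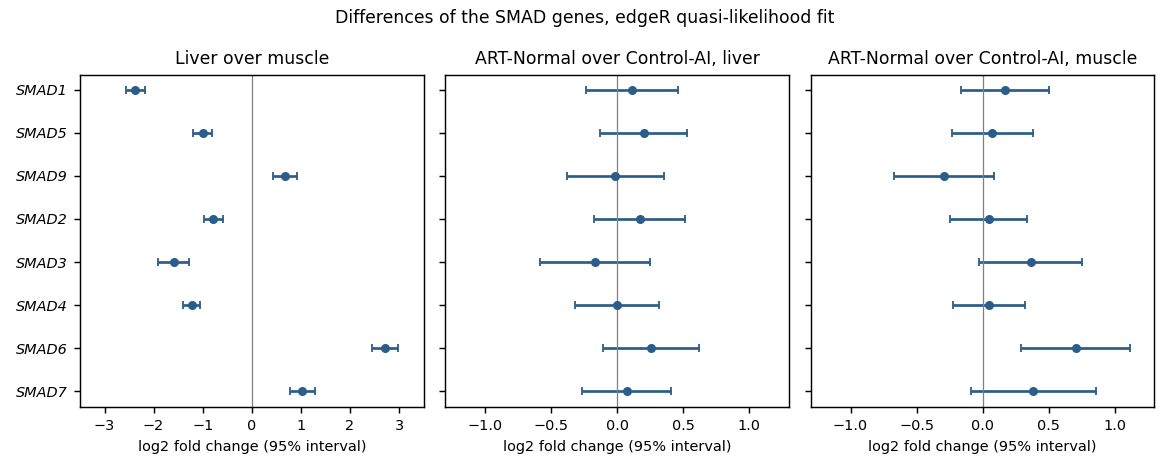
Log2 fold changes of the 8 SMAD genes with 95% confidence intervals from edgeR's quasi-likelihood fit. The left panel is liver over muscle, and the middle and right panels are ART-Normal over Control-AI in liver and in muscle, on a narrower axis; all 8 intervals exclude 0 between the tissues, and in the conception comparisons the interval of SMAD6 in muscle (0.29 to 1.12) alone does.

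SMAD6 in muscle was the member nearest to a difference between conception groups. The 4 ART-Normal muscles, at 14.9 to 20.1 CPM, were all above both controls, at 10.03 and 11.2 CPM. The log2 fold change was 0.70 ± 0.19 (SE, 95% interval 0.29 to 1.12), with an unadjusted p of 0.003334 and an adjusted p of 0.3168 in edgeR's quasi-likelihood fit, which does not pass the threshold. Across the other settings that kept both controls, its adjusted p lay between 0.08287 (likelihood ratio test) and 0.8622 (quasi-likelihood test with the replicate block). Without Control-AI 2 the log2 fold change was 0.61, and without Control-AI 4 it was 0.81. SMAD6 counts per SMAD4 count, which do not depend on scaling, were 0.0608 in Control-AI 2 and 0.0704 in Control-AI 4 against 0.0884, 0.0912, 0.117 and 0.119 for ART-Normal 1 to 4, again without overlap. The summed endothelial genes overlapped between the groups in muscle, with 768.4 to 875.3 CPM in ART-Normal against 839.4 and 859.1 CPM in the controls. The 7 connective tissue genes did not overlap, since all 4 ART-Normal muscles (22567.1 to 26846.2 CPM) were below both controls (29009.5 and 30163.7 CPM), and their part in the SMAD6 values was not tested.

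SMAD7 in muscle was also higher by CPM in all 4 ART-Normal libraries (12.3 to 18.5 CPM) than in both controls (10.1 and 12.1 CPM), by a narrow gap. Per SMAD4 count its groups overlapped, at 0.06998 to 0.1079 in ART-Normal against 0.06328 and 0.07355 in the controls. The log2 fold change of SMAD7 was 0.38 ± 0.21 SE, with an adjusted p of 0.6441, and it was 0.24 without ART-Normal 3 and 0.50 without Control-AI 2. SMAD9 in muscle was lower in all 4 ART-Normal libraries (18.4 to 25.6 CPM) than in both controls (27.1 and 28.9 CPM), with a log2 fold change of -0.29 ± 0.17 SE and an adjusted p of 0.6545, and with -0.26 without Control-AI 2. By CPM, groups that did not overlap were found for 3 of 8 members in muscle and for 16% of the genes tested (8.15% higher and 7.89% lower in ART-Normal), and for 0 of 8 members in liver against 18.4% of genes. Against Control-AI 4 alone, the same 3 genes of muscle stood apart from all 4 ART-Normal libraries, as did 20.5% of all genes above it and 20.3% below it. In liver, SMAD1 and SMAD7 were above Control-AI 4 in all 4 ART-Normal libraries, as were 17.7% of genes, and SMAD3 was below it, as were 18.8%. None of these genes passed the test.

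SMAD3 in muscle had a log2 fold change of 0.36 ± 0.18 SE (adjusted p = 0.5737), which was 0.23 without ART-Normal 3 and 0.27 without Control-AI 2, and its groups overlapped. SMAD1 in muscle stood at 0.17 ± 0.15 SE (adjusted p = 0.7841) and turned to -0.03 once Control-AI 2, its lowest muscle library, was left out, and to 0.41 without Control-AI 4. The remaining muscle values were 0.07 ± 0.14 SE for SMAD5, 0.05 ± 0.13 SE for SMAD2 and 0.05 ± 0.12 SE for SMAD4, with adjusted p of 0.9136, 0.9442 and 0.9349. Without Control-AI 2 these were -0.039 for SMAD5, -0.063 for SMAD2 and 0.059 for SMAD4. SMAD5 ranged from -0.039 to 0.19 over the fits that left out 1 fetus, with the highest value without Control-AI 4.

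In liver the log2 fold changes of ART-Normal over Control-AI were small for every member. SMAD6 was the highest at 0.26 ± 0.16 SE (95% interval -0.11 to 0.62, adjusted p = 0.6172), and SMAD3 was the lowest at -0.17 ± 0.19 SE (95% interval -0.58 to 0.25, adjusted p = 0.7496). The other 6 lay between -0.01 for SMAD9 and 0.20 for SMAD5. The choice of control moved these values. Leaving out Control-AI 2 gave 0.087 for SMAD6, and leaving out Control-AI 4 gave 0.46, and both of these fits rest on a lone control. Without Control-AI 2 the highest member was SMAD1, at 0.23, and the others were 0.11 for SMAD5, 0.10 for SMAD9, 0.10 for SMAD2, -0.22 for SMAD3, 0.081 for SMAD4 and 0.15 for SMAD7. Without Control-AI 4, SMAD1 was 0.012, SMAD5 was 0.31, SMAD2 was 0.26, SMAD3 was -0.094 and SMAD7 was 0.006. Among the ART-Normal fetuses, SMAD3 was -0.045 without ART-Normal 3, SMAD2 was 0.078 without ART-Normal 1, and SMAD7 was 0.041 without ART-Normal 2 and 0.046 without ART-Normal 4. Groups overlapped for all 8 members in liver. Summed hepatocyte genes did not overlap between the groups in liver (37093.4 to 63600.6 CPM in ART-Normal, 70433.2 and 364168.6 CPM in the controls). Nor did the erythroid genes (5992.7 to 6652.2 against 6893.8 and 25217.6 CPM) or the endothelial genes (512.7 to 558.5 against 571.6 and 573.8 CPM). The other marker lists overlapped, and the part of these cell types in the SMAD values was not tested. The median log2 fold change was 0.09 over the members against 0.01 over all genes in liver, and 0.12 against 0.00 in muscle.

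Whether the conception difference itself differed between the tissues was tested with an interaction term, the difference in liver minus that in muscle. None of the 8 members and 0% of 12923 genes passed in edgeR's quasi-likelihood test, and 5.55% of genes and none of the members had an unadjusted p under 0.05. With fetus as a replicate block, which pairs liver and muscle, no gene was called. In that fit 1233 of 12923 genes had an unadjusted p under 0.05, against 717 without the block, so such values were more common. SMAD6 was among the 1233, at -0.44 with a 95% interval of -0.79 to -0.09 (edgeR's quasi-likelihood test, unadjusted p = 0.0205, adjusted p = 0.5095). Without the block, SMAD3 had the largest value, -0.52 ± 0.27 (SE, adjusted p = 0.9255), followed by SMAD6 at -0.44 ± 0.23 (SE, adjusted p = 0.9255). This order rested on single fetuses. Without ART-Normal 3, SMAD3 was -0.26 and SMAD6 was -0.38, and without Control-AI 2, SMAD3 was -0.47 and SMAD6 was -0.51. SMAD1 was 0.27 without Control-AI 2 in place of -0.05, and SMAD7 was -0.13 without ART-Normal 3 in place of -0.30.

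Members were also compared by how they varied among fetuses once the mean of each tissue was removed from log2 CPM. Over the 12 libraries, which share fetuses, SMAD5 and SMAD2 varied most closely together (Pearson's r = 0.96, and 0.94 without Control-AI 2), though they belong to different branches and lie on different chromosomes. Their count ratio was correspondingly steady, with 1.23 to 1.34 SMAD2 counts per SMAD5 count in liver and 1.05 to 1.13 in muscle. Among all genes tested, SMAD2 ranked 14th by r for SMAD5, and SMAD5 ranked 8th for SMAD2, so other genes followed them as closely. The inhibitors SMAD6 and SMAD7 had r = 0.69, and 0.86 without Control-AI 2, with ranks of 617 and 463. SMAD3 and SMAD7 had r = 0.65, with and without Control-AI 2 nearly the same (0.64). SMAD4 had r = 0.55 with SMAD2 and 0.41 with SMAD5, which rose to 0.78 and 0.70 without Control-AI 2. SMAD1 had no r above 0.38 with any other member, and its lowest was -0.44, with SMAD9. Without Control-AI 2 its values ran from -0.52 with SMAD3 to 0.39 with SMAD4. These are descriptions over 12 libraries from 6 fetuses.

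The gene most like each member by the same r was GINS1 for SMAD1 (0.93), TRIP11 for SMAD5 (0.98), CD9 for SMAD9 (0.86), ZFX for SMAD2 (0.97), DENND5A for SMAD3 (0.94), PLAG1 for SMAD4 (0.90), DGKD for SMAD6 (0.97) and BICRA for SMAD7 (0.95). For SMAD1, the next were LSG1 (0.86) and LYAR (0.85). Without Control-AI 2, CD9 (0.96) and DENND5A (0.95) were still first for their members, and other genes came first for the remaining 6. These genes were picked out of all genes tested for the highest r, and the values are given as a description over 12 libraries.

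The remaining genes of the pathway were described from 12 lists of ligands, receptors, regulators, partners and response genes, which held 140 genes other than the SMADs, 136 of them in the tables. Of these, 104 were tested between the tissues, and 30 were higher in liver, 56 were lower and 18 were not called. A gene expressed in only 1 tissue enters the test through that tissue, so the 76 genes with at least 5 CPM in every library are the fairer count: 21 were higher in liver, 39 were lower and 16 were not called. Among all 9553 genes above the minimum in every library, 76.8% were called, 40.8% higher in liver and 36% lower. Between conception groups, 0 of 91 pathway genes were called in liver, 0 of 96 in muscle, and 0 of 104 in the interaction. At an unadjusted p under 0.05 there were 12, 9 and 5 genes, which is 13.2%, 9.38% and 4.81%, against 8.39%, 9.19% and 5.55% of all genes.

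**Figure D4:**
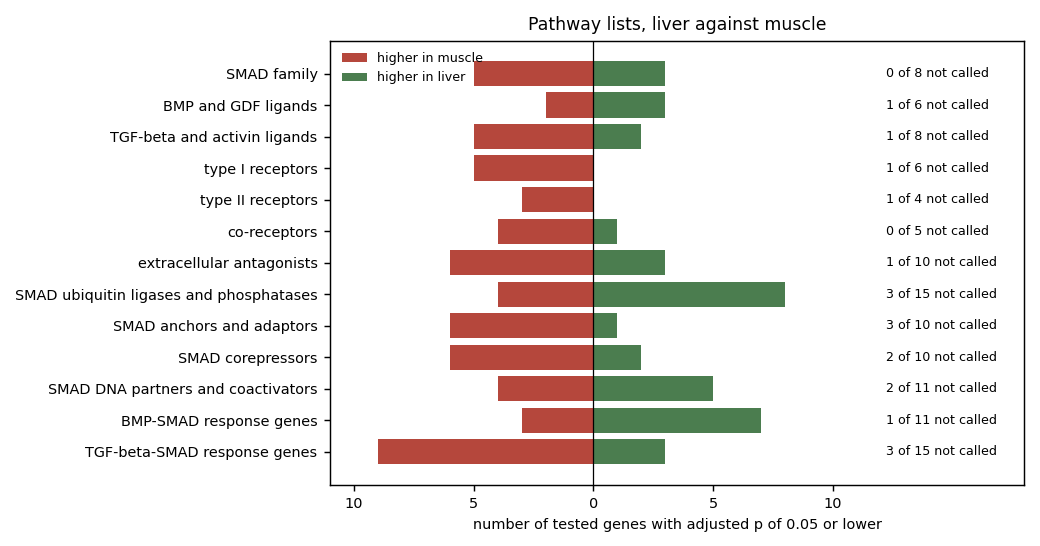
Number of genes per pathway list that were called higher in liver (green, to the right) or higher in muscle (red, to the left) at an adjusted p of 0.05 or lower, with the number not called at the right edge. A gene can be in more than 1 list; type I and type II receptors have no gene called higher in liver, and most ligands shown passed the 5 CPM minimum in 1 tissue only.

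Most ligands were near or below the minimum in 1 or both tissues. Of 18 BMP and GDF ligands in the list 6 were tested, and 3 were higher in liver, 2 were higher in muscle and 1 was not called. In every library of both tissues 2 of the 6 passed the minimum, of which BMP5 was higher in muscle and BMP4 was not called, so the counts of ligands mainly say which tissue a gene was found in. GDF2, the circulating ligand also known as BMP9, had 199 to 565 counts per liver library and at most 1 count per muscle library (adjusted p = 1.402e-11). GDF10 had a median of 5.61 CPM in liver and 0.531 CPM in muscle (log2 2.76 ± 0.56 SE). BMP5 had medians of 12.01 and 20.5 CPM (log2 -0.95 ± 0.19 SE). BMP6, the main BMP signal for hepcidin, was lower in liver at 2.93 against 12.5 CPM (log2 -1.91 ± 0.17 SE), but TXNDC5 overlaps it on the opposite strand and the handling of strand in counting is not stated, so its value is uncertain.

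Of 12 TGF-beta and activin ligands 8 were tested, and 2 were higher in liver, 5 were higher in muscle and 1 was not called. TGFB1 alone passed the minimum in all 12 libraries. MSTN, which encodes myostatin, a brake on muscle growth, ranged from 71.4 to 120.7 CPM with a median of 85.1 CPM in muscle and had 0 to 8 counts per liver library (adjusted p = 4.926e-12). TGFB2 stood at a median of 191.8 CPM in muscle and 2.18 CPM in liver (log2 liver over muscle -6.46 ± 0.12 SE). INHBE, the activin E subunit of hepatocytes, had 72 to 486 counts per liver library and at most 1 per muscle library (adjusted p = 3.269e-09). TGFB1 was higher in liver (21.8 against 10.4 CPM, log2 0.99 ± 0.21 SE), and its value is uncertain because CCDC97 overlaps it on the opposite strand; Control-AI 2 had the highest TGFB1 in both tissues.

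Among type I receptors 5 of 6 tested were higher in muscle and 1 was not called, and of the 4 above the minimum in all 12 libraries 3 were higher in muscle. Among type II receptors, all above the minimum in every library, 3 of 4 were higher in muscle and 1 was not called. These lists are small, and 36% of all genes above the minimum in every library were higher in muscle. BMPR1B, a type I BMP receptor, had a median of 66.2 CPM in muscle and 2.85 CPM in liver (log2 -4.54 ± 0.21 SE). ACVRL1, an endothelial type I receptor for GDF2, had medians of 25.6 and 5.70 CPM (log2 -2.25 ± 0.18 SE), lower in the tissue where GDF2 was found. ACVR2B, a type II receptor that binds myostatin, was at 126.3 CPM in muscle and 38.4 CPM in liver (log2 -1.68 ± 0.07 SE), and ACVR2A was at 67.2 and 31.1 CPM (log2 -1.15 ± 0.10 SE). Of 5 co-receptors, 4 were higher in muscle, or 2 of the 3 above the minimum in every library. RGMB, a BMP co-receptor, stood at 449.4 CPM in muscle and 4.71 CPM in liver (log2 -6.76 ± 0.20 SE), RGMA at 122.8 and 0.19 CPM, and endoglin (ENG) was the one higher in liver, at 134.5 against 87.8 CPM (log2 0.57 ± 0.10 SE).

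Extracellular antagonists and latent TGF-beta binding proteins included 3 genes higher in liver, 6 higher in muscle and 1 not called, or 2, 4 and 1 among the 7 above the minimum in every library. LTBP4 stood at 250.7 CPM in muscle and 8.42 CPM in liver (log2 -5.12 ± 0.16 SE). Chordin (CHRD) and BMPER, which bind BMPs outside the cell, were higher in liver by log2 0.60 ± 0.15 SE and 0.50 ± 0.16 SE.

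Of the 15 ubiquitin ligases and phosphatases that act on SMADs, all above the minimum in every library, 8 (53.3%) were higher in liver, 4 (26.7%) were higher in muscle and 3 were not called, against 40.8% and 36% of all genes. WWP1, a ubiquitin ligase, had a median of 257.2 CPM in liver and 55.2 CPM in muscle (log2 2.21 ± 0.10 SE). USP15, a deubiquitinase, had medians of 280.0 and 89.8 CPM (log2 1.72 ± 0.10 SE). SMURF2, a ligase that SMAD7 brings to receptors, was higher in muscle at 108.4 against 34.8 CPM (log2 -1.66 ± 0.09 SE), with CEP95 overlapping on the opposite strand. NEDD4L, a ligase for SMAD2 and SMAD3, was higher in muscle by a smaller step (116.1 against 92.6 CPM, log2 -0.48 ± 0.18 SE).

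Of the 10 anchors and adaptors tested, 1 was higher in liver, 6 were higher in muscle and 3 were not called. BAMBI, a decoy receptor, was the one higher in liver and the one not above the minimum in every library, at 54.6 against 2.05 CPM (log2 4.75 ± 0.14 SE). DAB2 was at 190.5 CPM in muscle and 46.2 CPM in liver (log2 -2.04 ± 0.11 SE), and PMEPA1, a TGF-beta target that holds SMAD2 and SMAD3 back, was at 51.6 and 21.6 CPM (log2 -1.44 ± 0.17 SE). Of 10 corepressors, 2 were higher in liver, 6 were higher in muscle and 2 were not called. HDAC1 (log2 1.54 ± 0.06 SE) and ZBTB7A (log2 1.64 ± 0.12 SE) were higher in liver. ZEB1 was higher in muscle, at 254.3 against 59.8 CPM (log2 -2.03 ± 0.11 SE), and so was ZEB2, at 64.6 against 26.6 CPM (log2 -1.19 ± 0.20 SE), which overlaps LOC613677 on the opposite strand.

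DNA partners and coactivators, all above the minimum in every library, had 5 of 11 higher in liver, 4 higher in muscle and 2 not called. FOXO3, a partner of SMAD3 and SMAD4, was at 428.1 CPM in liver and 85.8 CPM in muscle (log2 2.24 ± 0.10 SE), and RUNX1 was at 37.4 and 8.79 CPM (log2 1.85 ± 0.17 SE). ZNF423, a partner of the BMP-branch SMADs, was at 153.3 CPM in muscle and 6.85 CPM in liver (log2 -4.61 ± 0.19 SE), and JUN was at 74.5 and 22.4 CPM (log2 -1.68 ± 0.15 SE).

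Genes known to respond to BMP signals, a list that also holds SMAD6, SMAD7 and SMAD9, had 7 of 11 higher in liver, 3 higher in muscle and 1 not called, or 4, 1 and 1 among the 6 above the minimum in every library. SMAD6, SMAD7 and SMAD9, described above, are 3 of the 7 and 3 of the 4, so neither count is separate from them. HAMP, which encodes hepcidin, had 744 to 2495 counts per liver library and at most 1 count per muscle library (adjusted p = 5.044e-13). HEY1 and ATOH8 were higher in muscle, by log2 -2.54 ± 0.24 SE and -1.34 ± 0.15 SE for liver over muscle. Genes known to respond to TGF-beta, a list that also holds SMAD7, had 3 of 15 higher in liver, 9 higher in muscle and 3 not called, or 2, 6 and 2 among the 10 above the minimum in every library. SMAD7 is 1 of the 3 and 1 of the 2 that were higher in liver. THBS1 was higher in liver, at 508.3 against 93.1 CPM (log2 2.47 ± 0.11 SE), and FSIP1 overlaps it on the opposite strand. The collagen genes COL1A2 (5771.0 against 107.9 CPM, log2 -5.88 ± 0.34 SE) and COL1A1 (5993.0 against 150.1 CPM, log2 -5.27 ± 0.31 SE) were higher in muscle, and both are also among the connective tissue markers given above. Without both libraries of Control-AI 2, every list gene called between the tissues was called in the same direction except ID4.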

How the data were processed

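Gene counts of liver and skeletal muscle from 6 fetuses (12 libraries) were used. Kidney was not analysed here. The authors deposited raw counts per gene, with no normalization, and the submitters' processing notes name FastQC 0.11.7, HISAT2 2.1.0, Cufflinks, SAMtools, featureCounts and edgeR 3.24.3 on ARS-UCD1.2. The strand setting of counting is not given in the sources used here, and all 21048 listed lengths equal the whole gene span. Of 13 count columns per tissue, 6 matched samples, and 7 per tissue were not used. Both lines were kept for 9 gene identifiers listed on 2 lines. The authors' comparison tables (fold changes, likelihood ratios and p-values) were not used.

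From the counts, edgeR 4.0.16 in R 4.3.3 gave TMM-normalized CPM, log2 fold changes with SE, and two-sided quasi-likelihood p-values, adjusted by Benjamini-Hochberg over all genes tested (threshold 0.05). Genes were tested if every library of at least one group reached 5 CPM. ART-Normal and Control-AI were compared within each tissue without covariates. The tissues were compared with conception group as a covariate, and the interaction was fitted over all 12 libraries. Replicates are separate fetuses. The main fits across the tissues had no term for fetus and treated the 12 libraries as independent. Pairing by fetus entered only the differences within a fetus and the alternative fits with fetus as a block. Deviations from the group means correlated between the tissues by 0.36 for Control-AI 2 and 4 and by 0.21, 0.04, 0.08 and 0.31 for ART-Normal 1 to 4. With only 2 controls, the deviations of Control-AI 2 and 4 mirror each other, so 0.36 is a single value. Total counts were at least 12433300 per library, and each SMAD gene had at least 133 counts.

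Alternative fits changed the normalization (RLE, upper quartile, or library size alone), the test (likelihood ratio, or the Wald test of DESeq2 1.42.0), or the filter (none, or a minimum of 10 counts per library), added a replicate block, or left out each fetus in turn. Leaving Control-AI 2 out of the pathway lists was added after seeing the data. The members, lists and tests were chosen with earlier results of these data known. Pathway genes named are, per list, up to 2 with the largest difference in each direction past the threshold (2 of these genes are not reported here), and BMP4, ID4, TEK and the other endothelial markers, AHSG, and the genes overlapping a named gene were named besides. Like genes are those with the highest Pearson's r of tissue-centred log2 CPM (prior count 1). The fits were tested on simulated data. Python 3.11.15, pandas 2.3.3 and Matplotlib 3.10.9 made tables and plots.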

Additional observations from a re-analysis of the deposited data

Results flagged for a closer look

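In each tissue the 4 ART-Normal libraries of every SMAD gene were examined for a library far from the other 3 (a gap to the nearest library, relative to the whole range, above Dixon's 95% critical value). Of 16 groups, 4 held such a library, where chance flags about 1 in 20 groups. The groups share the same fetuses and libraries and are not independent, and the share over all genes is not given. No excess over chance can be read from this count. SMAD2 in ART-Normal muscle was lowest in fetus 4, at 135.2 CPM, against 156.2 to 159.1 CPM in the others. SMAD3 in ART-Normal liver was lowest in fetus 3, at 26.1 CPM, against 37.5 to 39.6 CPM. SMAD4 in ART-Normal liver was highest in fetus 1, at 82.4 CPM, against 65.9 to 68.1 CPM. SMAD6 in ART-Normal liver was lowest in fetus 1, at 84.3 CPM, against 107.4 to 110.6 CPM.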

How the results depend on the processing

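The 8 tissue differences kept their direction and passed the threshold under all 14 alternatives, and the number of members called (8 between the tissues, 0 in each conception comparison and in the interaction) was the same in each. With a replicate block, no call of a member changed. The block was the fetus between the tissues and in the interaction, and the replicate number within a tissue. Between conception groups the number of genes called moved. In liver it was 0, and became 8 with library size alone, 89 with the likelihood ratio test, 56 with DESeq2, 6 with the replicate block and 0 to 830 on leaving out 1 fetus. In muscle it was 1, and became 120 with the likelihood ratio test, 106 with DESeq2, 90 with the replicate block and 0 to 1327 on leaving out 1 fetus. In the interaction it was 0, and became 98 with the likelihood ratio test, 37 with DESeq2 and 0 to 232 on leaving out 1 fetus. The highest counts (830, 1327 and 232) arose without Control-AI 4, where the lone control, Control-AI 2, is assumed to vary like the other group. Conception groups share only the numbers 2 and 4, which do not pair fetuses. The cause of these changes was not tested.

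Log2 values near 0 changed sign. In liver SMAD9 became 0.20 with library size alone and 0.012 with no filter, SMAD3 became 0.030 with library size alone, and SMAD4 became -0.0047 with RLE and with DESeq2, -0.041 with upper quartile and -0.092 with the replicate block. In muscle the replicate block gave -0.028 for SMAD5 and -0.010 for SMAD2. In the interaction, library size alone gave 0.17 for SMAD1 and 0.18 for SMAD4. On leaving out 1 fetus, the ranges that crossed 0 were -0.11 to 0.10 (SMAD9, liver), -0.081 to 0.081 (SMAD4, liver), -0.032 to 0.41 (SMAD1, muscle), -0.039 to 0.19 (SMAD5, muscle), -0.063 to 0.17 (SMAD2, muscle), -0.37 to 0.27 (SMAD1, interaction) and -0.11 to 0.038 (SMAD4, interaction). With library size alone the median log2 value of all genes was 0.21 in liver, 0.20 in the interaction and -0.13 between the tissues, against 0.0075, -0.0006 and 0.0106 with TMM. Levels per kb of exon were not run, since no annotation of the build was used here.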
